A study of Homo sapiens with 12 samples.

Results

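The genes described here are the human WNT ligands, their receptors and co-receptors, the secreted inhibitors, the R-spondins with their LGR receptors, and the main intracellular and nuclear components of the pathway, with LEF1 and TCF7 at its end. The rule goes by symbol, though it was written with earlier results of these data known: every protein-coding gene whose symbol starts with WNT, FZD, SFRP or DKK and a number, together with LRP5, LRP6, ROR1, ROR2, RYK, LEF1, TCF7, TCF7L1, TCF7L2, AXIN1, AXIN2, CTNNB1, APC, RSPO1 to RSPO4, LGR4, LGR5, NKD1, NKD2, WIF1, NOTUM and PORCN. The rule gave 61 of the 62069 genes in the table: 19 ligands, 10 frizzled receptors, 5 co-receptors, 10 secreted inhibitors, 6 R-spondin or LGR genes, 4 LEF/TCF factors, 6 intracellular components and PORCN.

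RNA-seq was performed on IMR90 ER:RAS cells. These are fibroblasts of human lung with a RAS transgene joined to the hormone-binding domain of the estrogen receptor. Adding 4-hydroxytamoxifen (4OHT) switches this RAS on, and the cells then enter oncogene-induced senescence (OIS). There were 4 groups of 3 libraries, all from cells with ER:RAS at passage 13: non-induced cells, cells induced with 100 nM 4OHT, and cells induced in the same way that also expressed the shRNA shXPO7_3 or shXPO7_5 against XPO7, an exportin that carries proteins between nucleus and cytoplasm. All were collected on day 5 of induction after 7 days in culture with a change of medium on day 4; the labels name no control vector for the non-induced and induced groups. Libraries carry the letters T, A and B, or T, A and C in the non-induced group. No source used here ties the libraries to separate cultures, and p-values then measure only the spread between libraries, which may be technical.

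In WNT signalling a secreted ligand, lipid-modified by PORCN, binds a frizzled receptor together with LRP5 or LRP6. This stops a destruction complex built on AXIN1, AXIN2 and APC, and β-catenin (CTNNB1) then enters the nucleus and acts through LEF1, TCF7, TCF7L1 or TCF7L2, whereas ligands such as WNT5A mostly act through ROR1, ROR2 or RYK without β-catenin. DKK proteins such as DKK1 block the LRP co-receptors, SFRP and WIF1 proteins bind the ligands, NOTUM removes their lipid, and R-spondins raise receptor levels through LGR4 and LGR5. In the lung the pathway is best known for signals exchanged between fibroblasts and epithelium.

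Total counts ran from 28534141 to 60397769 per library. XPO7 averaged 134.5 ± 7.04 CPM (counts per 1e6 reads in genes; mean ± SD, n = 3) in non-induced cells, 136.6 ± 8.81 in induced cells, 27.7 ± 1.14 with shXPO7_3 and 52.2 ± 1.62 with shXPO7_5, so the targeted gene was lower in every library of both knockdown groups. Fibroblast markers summed to 18478 to 21825 CPM in non-induced libraries, 11516 to 13114 in induced libraries, 12433 to 16086 with shXPO7_3 and 13962 to 16305 with shXPO7_5, with none of the 8 at 0. COL1A1 and COL1A2 made up most of the sum, at means of 9346 and 7481 CPM in non-induced cells. On induction 6 of the 8 were called lower, where 26.1% of all genes tested were. DCN fell most, from a mean of 986.8 to 95.6 CPM. With shXPO7_5, 1 of the 8 was called higher, and with shXPO7_3 0 were called. Markers of T cells, which use LEF1 and TCF7 heavily, summed to at most 0.101 CPM in any library, with 2 of 5 at 0 throughout. Epithelial markers summed to 66.2 to 78.5 CPM in non-induced libraries and 35.8 to 51.3 CPM in the other groups, and endothelial markers to 14.6 to 15.05 and 8.94 to 11.99 CPM, with 2 of 5 endothelial markers at 0. The endothelial markers did not move together on induction: TEK fell by 0.98 on the log2 scale, while VWF and KDR had log2 fold changes of 0.50 and 0.57 and were not called. Nor did the epithelial ones. Of 4 tested, 3 were called lower, among them KRT19, from a mean of 33.6 to 2.01 CPM. KRT18 was not called, at 32.4 and 34.0 CPM. The part of these shifts in the results below was not tested, and in bulk RNA fewer expressing cells and less RNA per cell cannot be told apart.

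Of the 61 genes, 39 passed edgeR's filter on low counts and were tested. The other 22 were 10 ligands (WNT1, WNT3A, WNT4, WNT6, WNT7A, WNT8A, WNT8B, WNT9B, WNT10A and WNT11), 6 secreted inhibitors (DKK4, SFRP2, SFRP4, SFRP5, WIF1 and NOTUM), 4 R-spondin or LGR genes (RSPO1, RSPO3, RSPO4 and LGR5), FZD10 and NKD1. None of these 22 exceeded 14 counts or 0.303 CPM in any library, and WNT1, WNT8A and RSPO4 had 0 counts in all 12. For scale, 3 counts, a value chosen here to stand for a count of 0, equal 0.0505 to 0.106 CPM depending on the library. A mean of at least 1 CPM was reached by 32 members in non-induced cells and by 31 in each of the other groups.

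The promoters of 3 genes are shown for the members that the comparisons turn on most: LEF1, called on induction and with both shRNAs, NKD2, called on induction and with shXPO7_5 and with the largest knockdown change, and DKK1, the only member whose RefSeq promoter held a TCF/LEF motif. Each line gives the 250 bases before the RefSeq start (GRCh38.p14), 5′ to 3′ on the gene's strand, at chr4:108166302-108166551 (minus strand, within the GENCODE 29 span of LEF1, chr4:108047545-108168956), chr5:1008552-1008801 (plus strand) and chr10:52314031-52314280 (plus strand). Capitals mark the TCF/LEF motif.
LEF1: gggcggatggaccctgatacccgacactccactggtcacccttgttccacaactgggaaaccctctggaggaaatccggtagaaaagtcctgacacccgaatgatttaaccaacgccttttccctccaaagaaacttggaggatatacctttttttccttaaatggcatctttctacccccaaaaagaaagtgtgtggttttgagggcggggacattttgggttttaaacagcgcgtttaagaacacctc
NKD2: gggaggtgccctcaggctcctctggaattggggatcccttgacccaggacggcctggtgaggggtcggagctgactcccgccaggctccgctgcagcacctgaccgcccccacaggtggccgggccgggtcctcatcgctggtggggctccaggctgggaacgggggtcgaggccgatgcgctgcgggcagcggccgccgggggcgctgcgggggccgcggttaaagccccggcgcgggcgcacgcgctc
DKK1: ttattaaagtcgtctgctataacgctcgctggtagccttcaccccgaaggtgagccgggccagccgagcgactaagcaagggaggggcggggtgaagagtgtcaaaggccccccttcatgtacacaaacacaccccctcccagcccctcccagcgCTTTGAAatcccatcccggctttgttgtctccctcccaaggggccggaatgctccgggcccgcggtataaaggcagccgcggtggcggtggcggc
The TCF/LEF motif was searched as CTTTGAA or CTTTGAT on both strands. It occurred in 1 of 51 promoters of the 43 members with an entry (1.96%), and in 2086 of 35116 promoters of this length in the table (5.94%). In DKK1 its first base lay 95 bases before the start. The AP-1 motif, TGACTCA or TGAGTCA on both strands, occurred in 0 of 51 member promoters and in 1476 of all promoters (4.2%). The LEF1 window had a GC content of 47.6% with 8 CpG, the DKK1 window 62.8% with 18 and the NKD2 window 75.6% with 26, against medians of 58% and 11 over all promoters. These are matches of letters in a short window and say nothing of binding.

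The comparison of induced with non-induced cells asks how OIS changes the pathway. LEF1, the frizzled receptor FZD8, the inhibitor DKK2 and the ligand WNT7B rose between 7.46-fold and 18.5-fold, while WNT2, FZD2, FZD7, ROR2, DKK1, SFRP1 and TCF7L1 fell between 3.07-fold and 4.78-fold. Of the 61 members, 9 were higher, 13 were lower, 17 were tested and not called, and 22 were not tested (edgeR's quasi-likelihood test, adjusted p under 0.05). Of all genes tested in this comparison 50.9% were called, 24.8% higher and 26.1% lower, so being called was common. The median log2 fold change was -0.06 over the 39 tested members and -0.01 over the 15284 genes tested. An exact permutation test of 3 libraries against 3 cannot give a two-sided p below 0.1, a value that all 22 called members reached. These were chosen by a call on the same libraries, so reaching it adds no separate evidence. The share of all genes that reached it is not given here.

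**Figure D1:**
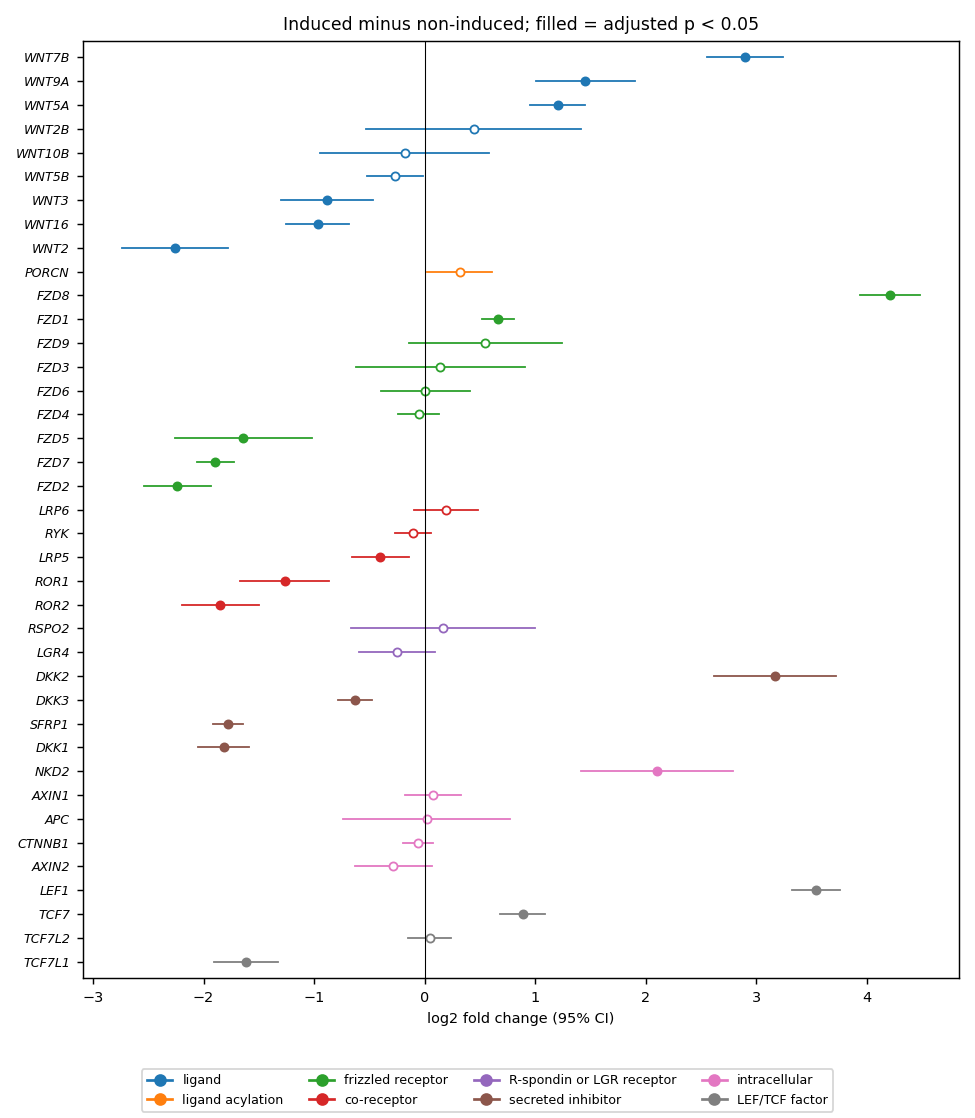
Log2 fold change of each of the 39 tested members, induced minus non-induced, ordered and coloured by role; points are edgeR estimates, lines their 95% confidence intervals, and filled points have an adjusted p under 0.05. FZD8 (4.21), LEF1 (3.54) and DKK2 (3.17) lie farthest to the right, and WNT2 (-2.26) and FZD2 (-2.24) farthest to the left.

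Among the ligands 3 rose, 3 fell and 3 were tested without a call. WNT5A, the main ligand of β-catenin-independent signalling, read 376, 428 and 450 CPM in the non-induced libraries T, A and C and 1003, 973 and 911 CPM in the induced libraries T, A and B. Every induced library was above every non-induced one, and the log2 fold change was 1.20 ± 0.12 (SE; adjusted p = 2.91e-06, edgeR). WNT7B, a ligand known from lung epithelium, read 1.61, 1.17 and 1.19 CPM without 4OHT and 10.1, 9.39 and 9.88 CPM with it. It rose 7.46-fold with no overlap, a log2 fold change of 2.90 ± 0.16 (adjusted p = 1.73e-08, edgeR). WNT9A stood at 1.76, 1.65 and 1.64 CPM in non-induced and 4.15, 5.49 and 4.28 CPM in induced libraries. Its groups did not overlap either, at a log2 fold change of 1.45 ± 0.21 (adjusted p = 8.57e-05, edgeR).

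WNT2, a ligand of lung mesenchyme, went the other way. It read 3.15, 3.91 and 2.66 CPM in non-induced and 0.820, 0.638 and 0.585 CPM in induced libraries, or 94 to 161 against 18 to 30 counts. The groups were apart, and the log2 fold change was -2.26 ± 0.22 (adjusted p = 3.45e-06, edgeR). WNT16 fell by 0.97 on the log2 scale from a mean of 11.4 to 5.84 CPM, and WNT3 fell by 0.89 from 1.34 to 0.719 CPM (adjusted p = 5.64e-05 and 0.00201, edgeR). WNT5B, WNT2B and WNT10B were not called. WNT5B was close to the threshold, at a log2 fold change of -0.27 with an adjusted p of 0.0681 (edgeR), and passed it in 8 of 21 alternative analyses. PORCN, the acyltransferase that ligands need for secretion, had a log2 fold change of 0.32 (adjusted p = 0.068, edgeR) and passed in 5 of 21.

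Per kilobase of exon, WNT5A led the ligands in every group. This scale compares different genes only roughly, because exon length is the union over transcripts. It made up 67.8 ± 3.64% (SD, n = 3) of the summed ligand CPM per kb in non-induced cells and 84.9 ± 0.84% in induced cells, while WNT5B went from 25.8 ± 3.51% to 11.6 ± 0.76%. The ligand sum went from 83.2 ± 3.25 to 153.2 ± 6.02 CPM per kb. WNT7B, in spite of its large fold change, stood at 1.94 CPM per kb in induced cells beside 130.1 for WNT5A.

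Of the 10 frizzled receptors, FZD8 and FZD1 rose, FZD2, FZD5 and FZD7 fell, 4 were not called and FZD10 was not tested. FZD8 was at 4.29, 3.94 and 3.06 CPM in non-induced and 71.7, 70.2 and 67.0 CPM in induced libraries. It had the largest change of the members tested, 18.5-fold with groups far apart, at a log2 fold change of 4.21 ± 0.12 (adjusted p = 9.32e-11, edgeR). FZD7 was at 189, 172 and 167 CPM in non-induced and 48.2, 46.1 and 47.6 CPM in induced libraries. It fell by 1.89 on the log2 scale (SE 0.078; adjusted p = 1.37e-09, edgeR) with no overlap. FZD2 was at 60.7, 65.2 and 54.7 CPM and then at 12.4, 12.7 and 13.1 CPM. This too was a drop beyond the spread of the libraries, with a log2 fold change of -2.24 ± 0.14 (adjusted p = 5.66e-08, edgeR). FZD1 had a log2 fold change of 0.66 and FZD5, below 1.2 CPM in every library, one of -1.64.

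The make-up of the receptor pool differed accordingly. FZD7 and FZD2 held 42.8 ± 3.03% and 26.7 ± 1.70% of the summed frizzled CPM per kb in non-induced cells and 17.3 ± 0.59% and 8.51 ± 0.41% in induced cells. FZD6 held 32.4 ± 0.64% and FZD8 24.4 ± 0.47% in induced cells. FZD6 itself was not called, with a log2 fold change of 0.00 and a 95% confidence interval from -0.40 to 0.41. The frizzled sum went from 106.6 ± 2.68 to 70.9 ± 1.32 CPM per kb.

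**Figure D2:**
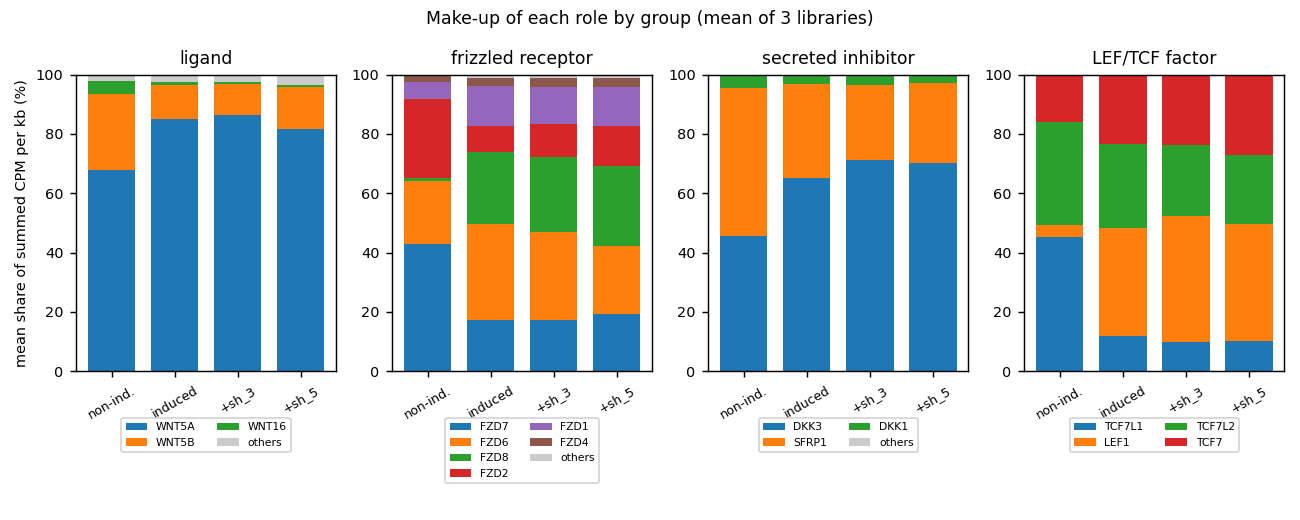
Share of each member in the summed CPM per kb of its role, as the mean of 3 libraries per group, for ligands, frizzled receptors, secreted inhibitors and LEF/TCF factors; members under 3% in every group are pooled as others, and +sh_3 and +sh_5 stand for shXPO7_3 and shXPO7_5. WNT5A takes 84.9% of ligands, FZD8 24.4% of frizzled receptors, DKK3 65.0% of inhibitors and LEF1 36.6% of LEF/TCF factors in induced cells, against 67.8%, 0.875%, 45.7% and 3.99% in non-induced cells.

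Of the co-receptors, ROR1, ROR2 and LRP5 fell and LRP6 and RYK were not called. ROR2, a receptor tyrosine kinase for WNT5A, read 9.15, 7.41 and 7.54 CPM in non-induced and 2.51, 2.06 and 2.10 CPM in induced libraries. It was lower in each induced library, at a log2 fold change of -1.85 ± 0.16 (adjusted p = 1.09e-06, edgeR). Its relative ROR1 read 16.2, 19.2 and 20.7 CPM and then 7.30, 9.07 and 7.02 CPM. ROR1 also fell without overlap, by 1.27 on the log2 scale (SE 0.19; adjusted p = 0.000111, edgeR). The fall of LRP5 was smaller, 0.40 on the log2 scale (adjusted p = 0.0127, edgeR). RYK was the most abundant co-receptor per kilobase in both groups, at 39.2% and 42.2% of their sum, and had a log2 fold change of -0.10.

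Of the 10 secreted inhibitors 3 fell, 1 rose and 6 were not tested. SFRP1, a soluble decoy that binds WNT ligands, was at 1084, 1004 and 955 CPM in non-induced and 296, 288 and 302 CPM in induced libraries. It fell by 1.78 on the log2 scale (SE 0.062; adjusted p = 3.2e-10, edgeR) with groups far apart. DKK1, which binds LRP5 and LRP6, was at 41.3, 43.9 and 45.2 CPM and then at 13.01, 10.8 and 13.1 CPM. The groups did not overlap, and the log2 fold change was -1.82 ± 0.11 (adjusted p = 3.07e-08, edgeR). DKK3, an outlying member of the DKK family, fell by 0.63 on the log2 scale from a mean of 992.6 to 641.6 CPM (adjusted p = 1.24e-05, edgeR).

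DKK2 was the exception among the inhibitors. It read 0.247, 0.267 and 0.283 CPM, from 8 to 11 counts, in non-induced and 2.16, 2.23 and 2.84 CPM in induced libraries. All induced libraries were higher, and the log2 fold change was 3.17 ± 0.25 (adjusted p = 5.59e-07, edgeR). Even so it stood at 0.558 CPM per kb in induced cells, beside 62.0 for SFRP1 and 127 for DKK3. The inhibitor sum went from 429.0 ± 28.4 to 195.1 ± 4.62 CPM per kb. DKK3, placed among the inhibitors by its symbol alone, replaced SFRP1 as the most abundant of them. It held 45.7 ± 0.63% of the sum before and 65.0 ± 0.50% after induction. Of the R-spondin and LGR genes, LGR4 and RSPO2 were tested and not called, at log2 fold changes of -0.25 and 0.16.

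The intracellular components at the centre of the pathway were not called. CTNNB1, which encodes β-catenin, had a log2 fold change of -0.06 with a 95% confidence interval from -0.19 to 0.07, AXIN1 one of 0.08 (-0.17 to 0.33) and APC one of 0.02 (-0.74 to 0.77). AXIN2, an inhibitor that β-catenin itself induces and a common readout of pathway activity, read 1.14, 1.43 and 1.25 CPM in non-induced and 0.984, 1.10 and 1.07 CPM in induced libraries. The induced libraries were all a little lower, and the log2 fold change of -0.28 (-0.63 to 0.06) was not called (adjusted p = 0.158, edgeR). NKD2, a feedback inhibitor that binds Dishevelled, read 0.0927, 0.0972 and 0.0567 CPM, which is 3, 4 and 2 counts, in non-induced and 0.301, 0.390 and 0.403 CPM, or 11 to 20 counts, in induced libraries. It rose, with a log2 fold change of 2.10 ± 0.32 (adjusted p = 0.000139, edgeR), from a level at the edge of detection.

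Among the 4 LEF/TCF factors LEF1 and TCF7 rose, TCF7L1 fell and TCF7L2 was not called. LEF1 was at 1.82, 1.75 and 1.59 CPM in non-induced and 19.5, 19.6 and 20.9 CPM in induced libraries, from 56 to 72 against 552 to 1037 counts. This was an 11.6-fold rise with groups far apart, at a log2 fold change of 3.54 ± 0.10 (adjusted p = 6.62e-11, edgeR). TCF7, another factor that β-catenin binds, was at 14.2, 13.2 and 11.5 CPM and then at 24.7, 23.6 and 23.6 CPM. It rose by less, 0.89 ± 0.094 on the log2 scale, again without overlap (adjusted p = 7.43e-06, edgeR). TCF7L1, mostly known as a repressor of WNT target genes, was at 17.8, 16.95 and 13.8 CPM and then at 5.03, 6.10 and 4.78 CPM. It fell by 1.62 on the log2 scale (SE 0.13; adjusted p = 8.26e-07, edgeR) with the groups apart. TCF7L2 had a log2 fold change of 0.05 (-0.15 to 0.24).

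The most abundant factor per kilobase therefore differed between the groups. TCF7L1 made up 45.4 ± 1.61% of the summed LEF/TCF CPM per kb in non-induced cells and 11.8 ± 1.43% in induced cells, LEF1 3.99 ± 0.16% and 36.6 ± 1.47%, TCF7 16.0 ± 0.07% and 23.4 ± 0.93%, and TCF7L2 34.6 ± 1.52% and 28.2 ± 0.31%. The sum of the 4 factors moved less, from 8.06 ± 0.88 to 10.2 ± 0.15 CPM per kb. LEF1-AS1, a transcript on the strand opposite LEF1 whose exons overlap it, was listed at 0 in non-induced libraries and at a mean of 0.342 CPM in induced ones. TCF7 exons overlap SKP1 on the opposite strand, which averaged 280.2 CPM in non-induced and 354.2 CPM in induced cells. No source used here says whether counting used strand, so reads of such pairs cannot be told apart. In all, 13 members overlapped exons of another gene, 11 of them on the opposite strand.

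**Figure D3:**
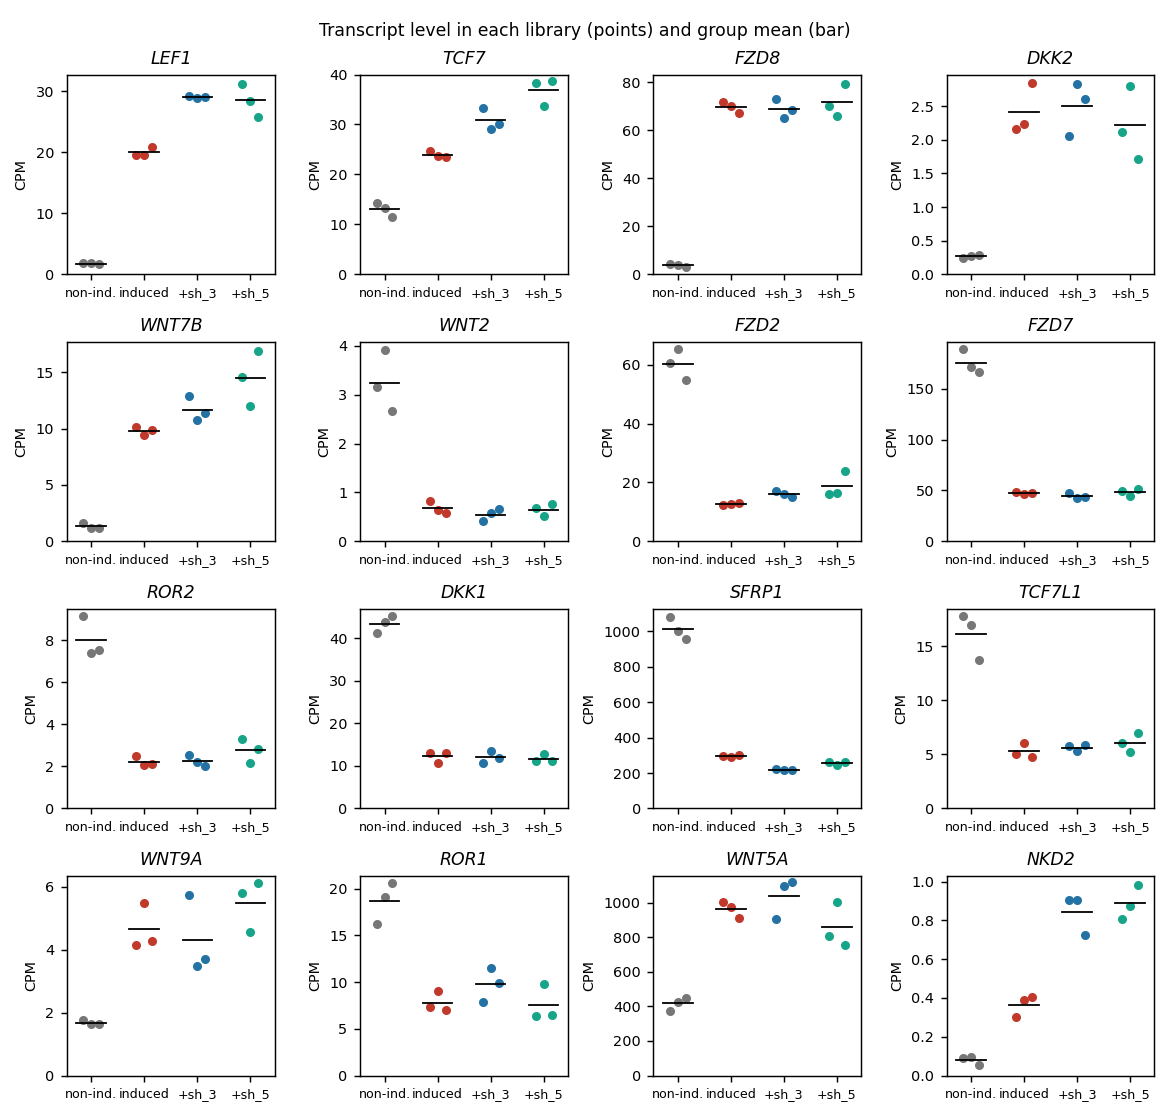
Transcript level (CPM, linear axes from 0) in each of the 12 libraries for 16 members; points are libraries and bars group means, and non-ind., +sh_3 and +sh_5 stand for non-induced, shXPO7_3 and shXPO7_5. LEF1 reads 1.59 to 1.82 CPM in non-induced, 19.5 to 20.9 in induced and 25.9 to 31.3 in knockdown libraries, whereas SFRP1 goes from 955 to 1084 down to 214 to 302.

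The knockdown comparisons ask which members differ in induced cells when XPO7 is depleted. Both use the same 3 induced libraries, so their values are set side by side and are not independent. With shXPO7_3, LEF1 was higher and SFRP1 lower, and 37 tested members were not called. With shXPO7_5, LEF1, TCF7 and NKD2 were higher, 0 were lower and 36 were not called (at an unadjusted p under 0.05, 7 and 10 of the 39 members). Of all genes tested, 0.124% were called with shXPO7_3, 0.0916% higher and 0.0327% lower, and 0.589% with shXPO7_5, 0.478% higher and 0.111% lower; at an unadjusted p under 0.05 the shares were 6.41% and 21.6%. The median log2 fold change of the tested members was -0.02 and 0.04, against -0.00 and 0.01 over all genes. Where knockdown and induced libraries are said below to lie apart, the share of all genes that did so is not given here.

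**Figure D4:**
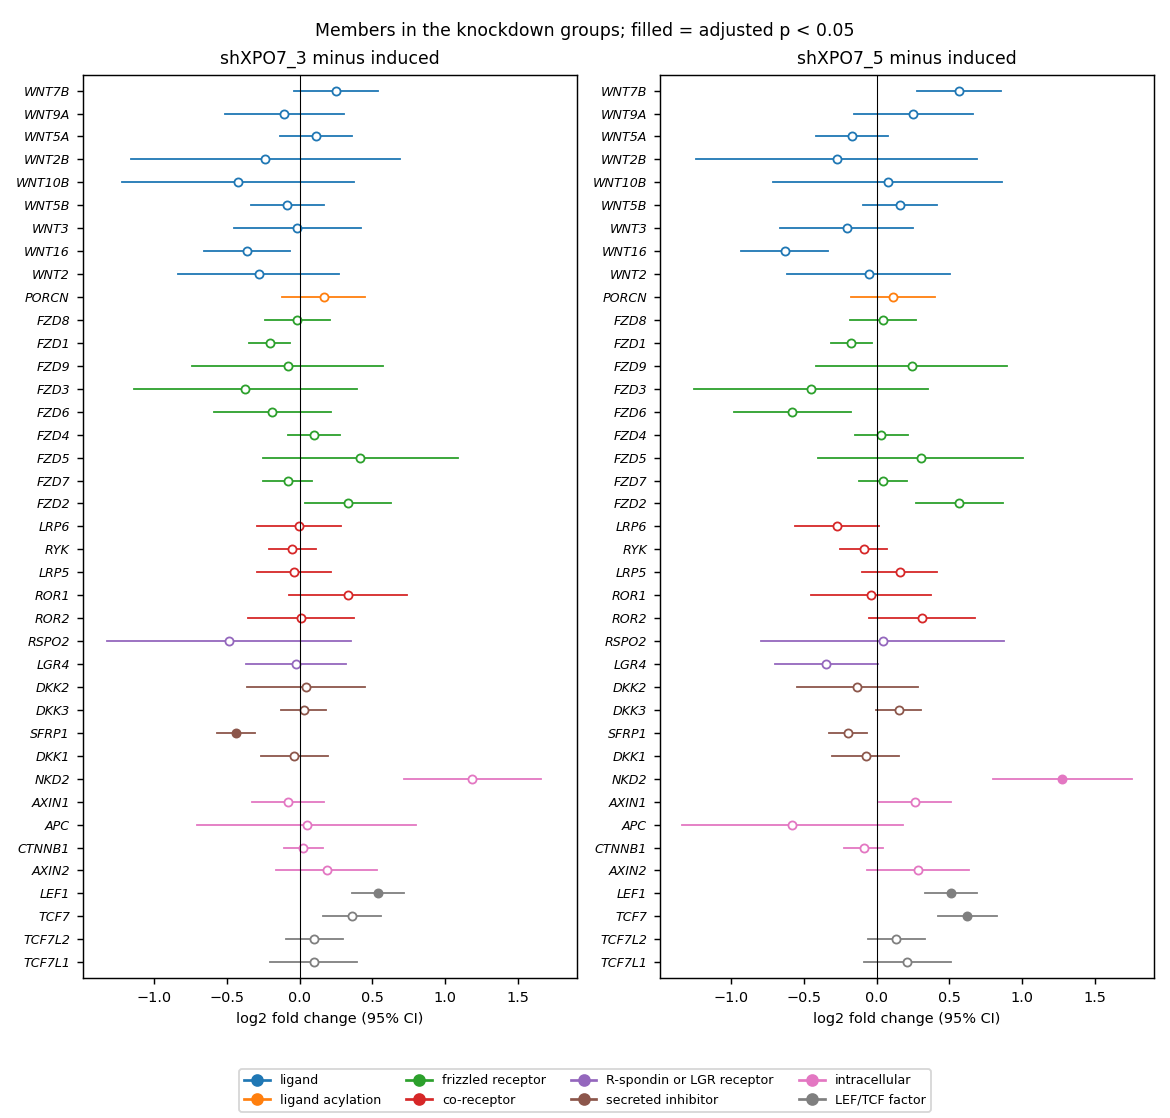
Log2 fold change of the 39 tested members with shXPO7_3 (left) and shXPO7_5 (right) against the same induced libraries, coloured by role; points are edgeR estimates, lines their 95% confidence intervals, and filled points have an adjusted p under 0.05. LEF1 is filled on both sides (0.54 and 0.51), SFRP1 (-0.44) on the left alone, and TCF7 (0.62) and NKD2 (1.28) on the right alone; members called on one side alone were not shown to differ between the shRNAs.

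LEF1, already raised by induction, was higher still in both knockdown groups. Beside 19.5, 19.6 and 20.9 CPM in induced libraries it read 29.3, 28.9 and 29.1 CPM with shXPO7_3 and 31.3, 28.5 and 25.9 CPM with shXPO7_5. Each of the 6 knockdown libraries was above each induced one. The log2 fold change was 0.54 ± 0.082 with shXPO7_3 (95% confidence interval 0.36 to 0.72, adjusted p = 0.0371, edgeR) and 0.51 ± 0.082 with shXPO7_5 (0.33 to 0.69, adjusted p = 0.0192, edgeR). The direction held in all 21 alternatives, but the call did so in 11 for shXPO7_3 (adjusted p from 0.000102 to 0.249) and in 16 for shXPO7_5 (0.000152 to 0.117). It was lost without any 1 of the induced libraries in both comparisons, without any 1 of the shXPO7_3 libraries or non-induced A in the former, and without shXPO7_5 T in the latter. The fit to the 2 groups compared ended both calls, and upper-quartile factors and the replicate block (adjusted p = 0.0751 and 0.0618, edgeR) ended that with shXPO7_3.

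TCF7 read 33.3, 29.01 and 30.1 CPM with shXPO7_3 and 38.4, 33.7 and 38.7 CPM with shXPO7_5, beside 23.6 to 24.7 CPM in induced libraries. Both knockdown groups were wholly above the induced one. Only the second passed the threshold, at a log2 fold change of 0.62 ± 0.092 (adjusted p = 0.0155, edgeR) beside 0.36 ± 0.092 for shXPO7_3 (adjusted p = 0.236, edgeR). The shXPO7_5 call held in 15 of 21 alternatives (adjusted p from 2.7e-06 to 0.0938) and was lost in the fit to the 2 groups and without any 1 induced library, shXPO7_5 T or shXPO7_5 B.

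NKD2 was at 0.906, 0.906 and 0.725 CPM with shXPO7_3 and at 0.808, 0.876 and 0.983 CPM with shXPO7_5, beside 0.301 to 0.403 CPM in induced libraries. These were 24 to 43 counts against 11 to 20, and the groups did not overlap. The log2 fold changes were the largest of the members in either comparison, 1.19 ± 0.22 (adjusted p = 0.0751, edgeR) and 1.28 ± 0.22 (adjusted p = 0.0265, edgeR). The shXPO7_5 call held in 12 of the 19 alternatives that gave a value (adjusted p from 0.0247 to 0.152), and was lost in the fit to the 2 groups and without any 1 induced library, shXPO7_3 A, shXPO7_5 T or shXPO7_5 B.

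SFRP1, lowered by induction, was lower again with shXPO7_3. It read 221, 220 and 214 CPM with shXPO7_3 and 263, 246 and 263 CPM with shXPO7_5, beside 288 to 302 CPM in induced libraries. Both groups lay below the induced libraries, but shXPO7_3 alone was called, at a log2 fold change of -0.44 ± 0.060 (adjusted p = 0.0243, edgeR) beside -0.20 ± 0.060 (adjusted p = 0.138, edgeR). The call held in 13 of 21 alternatives (adjusted p from 4.16e-05 to 0.193) and was lost with upper-quartile factors, in the fit to the 2 groups and without any 1 of the induced or shXPO7_3 libraries.

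The difference between the shRNAs was also tested directly. None of the 39 members was called (edgeR; 5 at an unadjusted p under 0.05), where 0.0131% of all genes were. LEF1 differed by -0.03 on the log2 scale, shXPO7_5 minus shXPO7_3, with a 95% confidence interval from -0.21 to 0.15. The interval was 0.06 to 0.46 for TCF7, -0.34 to 0.52 for NKD2 and 0.11 to 0.37 for SFRP1, the last with an adjusted p of 0.388 (edgeR). Remaining XPO7 was itself higher with shXPO7_5, by 0.92 on the log2 scale.

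Other members raised by 4OHT were not called with either shRNA. FZD8 had log2 fold changes of -0.02 (-0.24 to 0.21) and 0.04 (-0.18 to 0.27) with shXPO7_3 and shXPO7_5, DKK2 of 0.04 and -0.13, and WNT5A of 0.11 and -0.17. With the GC content and length correction described below FZD8 turned to -0.19 with shXPO7_5 (adjusted p = 0.0649, edgeR), and with the replicate block added it was called lower (adjusted p = 0.0285, edgeR). WNT7B read 12.9, 10.7 and 11.4 CPM and 14.6, 12.1 and 16.9 CPM beside 9.39 to 10.1 CPM. It lay above the induced libraries in both groups but was called in neither, at an adjusted p of 0.894 and 0.0785 (edgeR). Its knockdown values were picked after they were seen. WNT16 and FZD2 were also near the threshold with shXPO7_5, at log2 fold changes of -0.63 and 0.57 (adjusted p = 0.0615 and 0.0846, edgeR). AXIN2 had log2 fold changes of 0.19 and 0.28, and CTNNB1 of 0.03 and -0.09, with neither called.

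The base composition of transcripts moved with the shXPO7_5 values. Over 39 members that share these libraries, the Spearman correlation of log2 fold change with transcript GC content was 0.80 for shXPO7_5 and 0.21 for shXPO7_3, against 0.69 and 0.11 over 14864 genes. In libraries, the correlation of the log ratio to the induced mean with GC content was 0.787 in shXPO7_5 B, 0.611 in shXPO7_5 T and 0.575 in shXPO7_3 T, and between -0.344 and 0.317 in the other 9. GC content was 48.4% for LEF1, 48.1% for SFRP1, 56.9% for TCF7 and 67.2% for NKD2. When a smooth trend on GC content and length was removed from each library, the shXPO7_5 log2 fold change was 0.50 for LEF1, 0.49 for TCF7, 1.02 for NKD2 and -0.20 for SFRP1, all called (adjusted p = 0.000756, 0.000195, 0.0276 and 0.0107, edgeR). The shXPO7_3 values were 0.55, 0.33, 1.17 and -0.42, also called (adjusted p = 0.000442, 0.00215, 0.0137 and 0.000105, edgeR). With this correction WNT7B, FZD2, FZD6 and WNT16 were called with shXPO7_5 as well, and FZD2 with shXPO7_3. Calls grew over the whole table too. Of 15284 genes tested they went from 19 to 382 with shXPO7_3 and from 90 to 503 with shXPO7_5.

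Genes that act around the members were counted from 5 further lists. Each count on induction is to be set beside the 50.9% of all genes tested that were called, 24.8% higher and 26.1% lower. Of 15 genes of WNT secretion and receptor turnover, 9 were tested, 4 rose and 4 fell on induction. WLS, the carrier that brings WNT proteins to the cell surface, read 388, 351 and 334 CPM in non-induced and 1986, 1915 and 2001 CPM in induced libraries. The groups were far apart, and the log2 fold change was 2.46 ± 0.079 (adjusted p = 1.89e-10, edgeR). The secreted antagonist DRAXIN (2.23) and KREMEN1, a DKK receptor (1.05), rose as well, whereas APCDD1, an antagonist and β-catenin target, fell by 3.73 on the log2 scale.

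Of 21 cytoplasmic transducers, all tested, 8 rose and 3 fell, with changes under 1 on the log2 scale, where 50.9% of all genes tested were called. DVL2, a Dishevelled protein, had a log2 fold change of -0.84, BTRC, which marks β-catenin for degradation, one of 0.83, AMER1, a scaffold for APC, one of -0.81, and FRAT1, a GSK3 inhibitor, one of -0.60. Of 20 nuclear cofactors 1 rose and 7 fell. The corepressors TLE1 (-0.96) and TLE4 (-0.86) fell and TLE3 (0.68) rose, and the kinase HIPK2 had a log2 fold change of -0.70.

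β-Catenin target genes outside the members went both ways, with 7 higher and 7 lower of the 20 tested among 24, where 50.9% of all genes tested were called. The protease MMP7 had 0 counts in each non-induced library and 0.532 to 0.706 CPM in induced ones. Its induced mean was 22.6-fold higher than 3 counts over the non-induced group, the value chosen to stand for 0. The growth factor VEGFA had a log2 fold change of 1.74 and the transcriptional inhibitor ID2 one of -1.78, both called, while APCDD1, named above, is on this list too. The list's median was 0.11, also with MMP7 set to this 22.6-fold value. Of 13 planar cell polarity genes 3 rose and 7 fell, among them the formin DAAM1 at 1.31, DAAM2 at -2.94, and the core components CELSR2 and VANGL2 at -1.17 and -1.14. In each of the 5 lists 0 genes were called with either shRNA (edgeR; from 0 to 4 genes a list at an unadjusted p under 0.05 with shXPO7_3 and from 3 to 8 with shXPO7_5). Calls were rare over all genes tested too, at 0.124% with shXPO7_3 and 0.589% with shXPO7_5. At an unadjusted p under 0.05 stood 0% to 20% of a list's tested genes with shXPO7_3, against 6.41% of all genes. With shXPO7_5 it was 28.6% to 40%, against 21.6%.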

How the data were processed

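RNA-seq of IMR90 ER:RAS cells gave 12 libraries, grouped by their labels into 4 groups of 3. The authors deposited raw counts of reads per gene, with no normalization applied. According to the submitters' processing notes these came from featureCounts 1.18.0 on TopHat2 2.0.11 alignments, after CASAVA 1.8.4, with hg19 and GRCh37 named as builds. Which annotation and strand setting were used, and how multi-mapped reads were treated, is not given in the sources used here. All 92 entries for ERCC spike-ins were 0 throughout and were left out. Symbols were matched by Ensembl identifier for 50409 genes, which held 99.49% of counts.

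Members followed the symbol rule, which also matched 3 genes that are not protein coding (FZD4-DT, FZD10-AS1 and WNT5A-AS1) and were left out. Members and lists were chosen with earlier results of these data known. Counts were fitted in R 4.3.3 with edgeR 4.0.16: filterByExpr (15284 genes kept), TMM factors, a quasi-likelihood model over all 12 libraries without covariates, and Benjamini-Hochberg adjustment over all genes tested, at 0.05. CPM were computed with TMM-scaled totals. Exon lengths, GC content and overlaps came from GENCODE 29 on GRCh38, matched by identifier only because the counts were made on GRCh37; exon length is the union over transcripts. Promoters came from the RefSeq table on GRCh38.p14, in which 43 of 61 members had an entry.

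Values in every library were given for LEF1, TCF7, members called on induction with an absolute log2 fold change of at least 1 and a mean of at least 1 CPM in one group, and members called in a knockdown; from other lists, up to 4 called genes with the largest change were named. WNT7B in the knockdowns, AXIN2, and members near the threshold were added after their values were seen. The analysis was repeated with other scaling factors (RLE, upper quartile), with a filter of 1 count in any library or of 1 CPM in 6 libraries, with replicate letter as a block, with a spline correction for GC content and length (5 degrees of freedom), with block and correction together, with only the 2 groups compared, with DESeq2 1.42.0, without each library in turn, and with calls held to an absolute log2 fold change of 1 or more. The pipeline was tested on simulated counts. Library pairs within groups differed by a chi-square of 4.27 to 56.2 per gene, more than counting noise, so none was treated as a duplicate. In these pairs shXPO7_3 T stood apart from A and B (41.6 and 46.5, against 4.27 between them), and shXPO7_5 A from T and B (34.6 and 56.2, against 11.7).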

Additional observations from a re-analysis of the deposited data

How the results depend on the processing

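On induction, the 22 calls among members kept their direction and their side of the threshold in every refit that gave them a value. Over these refits and the call rule of an absolute log2 fold change of 1 or more there were 7 to 13 members higher and 9 to 15 lower. The 13 came with the GC content and length correction, where 9898 of all 15284 genes tested were called, 5442 of them higher. In the main fit 7777 were called, 3793 of them higher. Of the 17 members not called, 7 passed in some alternative (AXIN1, FZD9, LGR4, LRP6, PORCN, RYK and WNT5B). Upper-quartile factors shifted the median of all genes to -0.10 on the log2 scale and moved the split of calls from 3793 higher of 7777 to 2872 of 7505.

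The knockdown calls depended on the analysis. Members higher with shXPO7_3 numbered 1, against 0 with upper-quartile factors, in the fit to the 2 groups or with calls held to a log2 change of 1 or more, and 4 with the GC content and length correction; members lower numbered 1, against 0 in the first 3 of these. Members higher with shXPO7_5 numbered 3, against 5 without a filter on low counts, 5 with the correction, 0 in the fit to the 2 groups and 1 with the same limit on size. Members lower with shXPO7_5 numbered 0, against 2 without the filter, 3 with the correction and 1 (WNT16) with DESeq2. Leaving out 1 library gave 0 to 1 higher and 0 to 1 lower with shXPO7_3, and 0 to 5 higher and 0 to 5 lower with shXPO7_5, both 5 without shXPO7_5 A, where all calls went from 90 to 3634. Over all genes, calls with shXPO7_3 went from 19 to 1 without any 1 of the induced or shXPO7_3 libraries, to 7 without non-induced A, 11 without non-induced C and 9 without shXPO7_5 T. Those with shXPO7_5 went to 2 without induced T, induced A or shXPO7_5 T, 14 without induced B, 7 without shXPO7_5 B, 57 without non-induced A and 181 without shXPO7_3 T. The correction raised all calls from 19 to 382 and from 90 to 503. They were 30 and 217 without the filter and 88 and 426 with DESeq2. With upper-quartile factors they were 8 and 67, and in the fit to the 2 groups 2 and 10. Between the shRNAs 0 members were called, and 1 higher (SFRP1) with the correction, with or without the block. The XPO7 difference between shRNAs, 0.91 in the fit to the 2 groups, was no longer called (adjusted p = 0.114, edgeR). Causes of these changes were not tested beyond what each setting changes.

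Whether the replicate letters pair the libraries was not settled. Same-letter correlations of deviations from group means ran from -0.23 to 0.59, and different-letter ones from -0.62 to 0.51. Letter C occurs in the non-induced group alone, so with the block that library adds nothing to the induction comparison. On the non-induced side the comparison then rests on libraries T and A. With the replicate block, members called were 10 higher and 14 lower on induction, 0 and 1 with shXPO7_3, and 4 and 0 with shXPO7_5. With the replicate block and the GC content and length correction together they were 12 and 15, 5 and 1, and 5 and 4. Over all 15284 genes tested, calls in these comparisons were 7987, 13 and 149 with the block. With both they were 9683, 481 and 1040, against 7777, 19 and 90 in the main fit. FZD8 with shXPO7_5 reversed to -0.19 with both, as it did with the correction alone. DESeq2 gave no adjusted p for NKD2 with shXPO7_5. At these depths the 22 members under the filter had at most 14 counts in any library, so a change in them may have been missed. NKD2 had 2 to 4 counts in non-induced libraries.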

Other observations

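Counts are given for 3 members below the filter on low counts, which the main model did not test. NKD1, a relative of NKD2, had 2, 0 and 0 counts in the non-induced libraries T, A and C, 8, 2 and 8 in induced T, A and B, 9, 8 and 14 with shXPO7_3 and 9, 7 and 11 with shXPO7_5. NOTUM, which inactivates WNT ligands, had 1, 2 and 2 counts, then 7, 2 and 5, 11, 7 and 13, and 2, 3 and 6. WNT11, a β-catenin-independent ligand, had 1, 4 and 2 counts, then 7, 3 and 3, 7, 10 and 11, and 4, 0 and 9. In CPM the induced and non-induced libraries did not overlap for NKD1 and NOTUM (exact two-sided permutation p = 0.1 for each, the smallest that 3 against 3 allows) and overlapped for WNT11 (exact permutation p = 0.2). For NKD1 and NOTUM the nearest libraries of both groups had 2 counts each and differed in CPM only through library scaling. The share of all genes without overlap is not given here. All 3 genes were picked after their counts were seen.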
